A study of Drosophila melanogaster with 8 samples.

Results

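Small nucleolar RNAs (snoRNAs) were followed across RNA-seq libraries labelled as intestinal stem cells of Drosophila melanogaster. The members were all genes whose name begins with snoRNA: and whose counts summed to at least 50 over the 8 libraries. The members were thus selected on their total count over all libraries, which includes those compared below. This rule took 170 of the 273 snoRNA genes in a table of 17473 genes. The 170 held 392352 counts, and the 103 snoRNA genes below the minimum held 1625 together, with 11 of them at 0 in every library. Just inside the minimum were Me28S-A774b and U49:66Da with 50 counts each and Psi18S-640f with 51. Just outside it were Me28S-C2645a with 49, Me18S-C1366 with 48 and Me5.8S-G74 with 47. Names are given here without the prefix snoRNA:, which all members share.

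A snoRNA is a short nuclear RNA that pairs with another RNA and brings a protein complex to it. H/ACA-box snoRNAs bring the pseudouridine synthase complex and are named Psi in this table, and C/D-box snoRNAs bring the 2′-O-methyltransferase complex and are named Me, in both cases followed by the RNA and the position that is modified. U3 is a C/D-box snoRNA that pairs with the ribosomal RNA precursor and acts in its cleavage rather than in its modification. Most snoRNAs of animals are cut from introns of other genes, many of which encode ribosomal proteins, while U3 is transcribed from genes of its own. SnoRNAs mature in the nucleus and carry no long poly(A) tail, whereas the RNA sequenced here had been recovered through a poly(A)-binding protein.

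The 8 libraries fall into 4 groups with 2 replicates each. C had Control mtDNAs, M had Mutant mtDNAs, FC had Control mtDNAs with FOXO knockdown, and FM had Mutant mtDNAs with FOXO knockdown. Per the labels' protocol all 4 groups went through the same recovery: fixation in formaldehyde, sonication, anti-FLAG beads and elution of what was bound to pAbp, a poly(A)-binding protein. The labels give neither the driver of the tagged protein or of the knockdown, nor the mtDNA mutation, nor the age of the flies, nor whether replicates came from separate animals, so p-values measure only the spread between these libraries.

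Total counts were 21133996 to 39327066 per library. Ribosomal RNA genes took 18.2% of the counts in C replicate 1 and 30.8% in M replicate 1, against 79.4% to 83.8% in the other 6 libraries, and the 2 kinds are called low-rRNA and high-rRNA libraries below. Levels are therefore counts per 1000000 counts outside rRNA genes, of which there were 32186975 and 19184494 in the low-rRNA libraries and 4103725 to 7561200 in the others. A count of 0 allows up to 3 counts, which is 0.0932 to 0.731 on that scale. The summed level of 4 enterocyte markers was 7740 to 13533 per library and that of 4 progenitor markers 163 to 369, with esg and Dl, which mark progenitors and stem cells, detected throughout. Most of the enterocyte sum was Jon65Aiv, a digestive protease, at 6555 to 11601, and nub, Myo31DF and Amy-p were also detected in every library. The source of RNA of these markers was not tested. The level of foxo was 183 to 206 in the 4 libraries labelled FOXO knockdown and 169 to 247 in the others. These ranges overlap through the low-rRNA libraries, C replicate 1 at 169 and M replicate 1 at 171. Among the high-rRNA libraries, C replicate 2 was at 240 and M replicate 2 at 247, above all 4 knockdown libraries. That sets 1 library each of C and M against the knockdown, which is referred to by its label.

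By name, 108 members were H/ACA-box, 32 were C/D-box, 3 were copies of U3 and 27 had names that give no box. The H/ACA members held 79.8% of all member counts, the C/D members 2.56%, U3 3.69% and the others 13.9%. Of 114 H/ACA genes, 108 passed the 50-count minimum, while 32 of 111 C/D genes did. Of 6 U3 genes 3 passed, and the U3 copies below are those 3. Among the H/ACA members 61 are named for a position in 28S rRNA, 43 for one in 18S rRNA and 4 are orphans with no named target. Among the C/D members 18 are named for 28S, 9 for 18S, 1 for the spliceosomal U6 RNA and 4 are orphans. The C/D members were the shorter ones in the annotation, with a median of 83 bases against 140 for H/ACA and 210 for U3.

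The summed level of all members was 5570 in C replicate 1 and 749 in C replicate 2. In M it was 9153 in replicate 1 and 1282 in replicate 2. In FC it was 962 and 1008, and in FM 1361 and 1555. Both low-rRNA libraries stood far above the rest, and the 2 replicates of C differed 7.43-fold and those of M 7.14-fold. Within each replicate number M was above C, 1.64-fold in replicate 1 and 1.71-fold in replicate 2. Both FM libraries were above both FC libraries, 1.41-fold and 1.54-fold by replicate number, which does not pair FC with FM libraries. An exact permutation test of 2 against 2 libraries cannot give a two-sided p below 0.333, so these sums have no p of use. In bulk RNA, fewer cells that make an RNA and less of it per cell cannot be told apart.

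**Figure D1:**
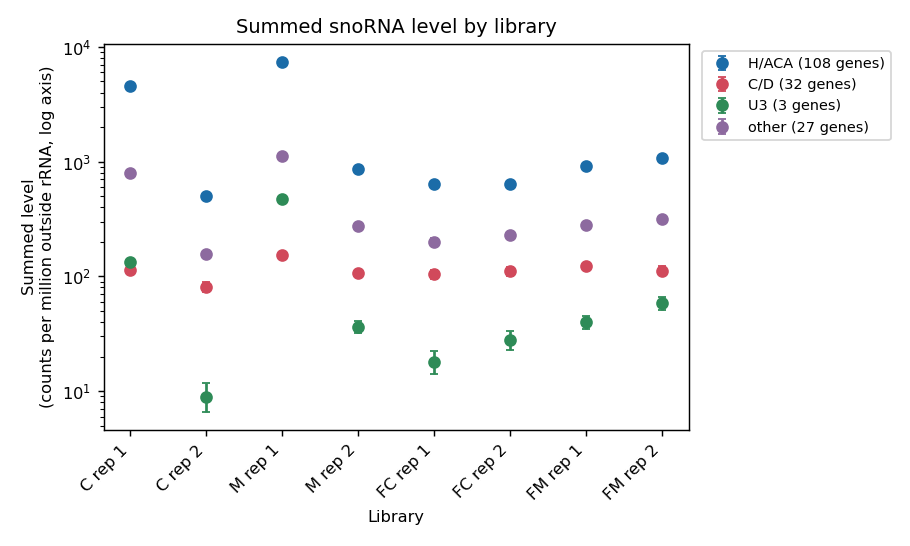
Summed level of the H/ACA, C/D, U3 and other members in each library, in counts per 1000000 counts outside rRNA genes on a log axis, with 95% Poisson intervals for counting error. H/ACA members reach 4534 and 7411 in C and M replicate 1 and 503 to 1073 elsewhere, while C/D members stay between 80.9 and 154.

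The boxes differed in how far the low-rRNA libraries stood apart. The H/ACA sum was 4534 in C replicate 1 and 503 in C replicate 2, a 9.02-fold difference, and 8.60-fold between the M replicates. The U3 sum was 134 in C replicate 1 and 8.90 in C replicate 2, 15.1-fold, and 475 and 36.2 in M, 13.1-fold. The C/D sum was 114 and 80.9 in C, 1.41-fold, and 154 and 107 in M, 1.44-fold. The sum and the median C/D member point in opposite directions: of the members with at least 10 counts in both libraries, 3 of 11 were above 1 in C replicate 1 over 2, with a median ratio of 0.545, and 3 of 14 in M, with a median of 0.470. The 4 orphans held 4910 of the 10029 C/D counts, with 87.7% of them in the low-rRNA libraries. Accordingly H/ACA members made up 81.4% and 81.0% of member counts in the low-rRNA libraries and 63.7% to 69.0% in the others, and C/D members 2.05% and 1.68% against 7.19% to 11.0%.

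Other short or untailed RNAs were read on the same scale. The RNAs of RNase P and RNase MRP, enzymes that cut tRNA and rRNA precursors, were 7.60-fold higher in C replicate 1 than in C replicate 2 and 7.51-fold higher in M replicate 1 than in M replicate 2. The spliceosomal and other snRNAs differed 10.4-fold and 20.6-fold, and the 2 genes of 7SL RNA, the RNA of the signal recognition particle, 14.0-fold and 31.8-fold. The scaRNAs, which guide modification of spliceosomal RNAs, differed 4.10-fold and 3.75-fold. The tRNA genes were not higher in both low-rRNA libraries. Their sum was 16.7 in C replicate 1, the lowest of all libraries, and 47.7 in C replicate 2. It was 42.7 and 25.4 in M replicates 1 and 2, and 27.0 to 42.1 in FC and FM. The 56 protein-coding host genes of members differed 1.5-fold and 1.33-fold.

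C replicate 1 and M replicate 1 held 90.4% of member counts, and the 50-count rule used them, so it favours members that are high there. Of the 170 members, 117 also reached 50 counts in the 6 high-rRNA libraries alone and 53 did not. In the low-rRNA libraries no member was at 0 in C replicate 1 and 1 was in M replicate 1, while 3 to 33 members were at 0 in each of the others. The highest level lay in M replicate 1 for 81 members and in C replicate 1 for 23. Across the 170 members, levels in the 2 low-rRNA libraries ranked nearly alike, with a Spearman correlation of 0.98, although they come from different groups. The 15 pairs of high-rRNA libraries gave 0.64 to 0.89, and the 12 pairs across the kinds 0.33 to 0.67. Those values describe the members' order only, since members in 1 library share its depth. Member counts were 179280 and 175591 in the low-rRNA libraries and 3956 to 9693 in the others. The part of counting error in the lower correlations was not tested.

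The member with the most counts changed with the kind of library. Psi28S-291, which guides a pseudouridine of 28S rRNA, held 13.5% of member counts in C replicate 1 and 23.0% in M replicate 1, and 2.33% to 4.86% in the others. Psi18S-1377a, for a site in 18S rRNA, led in all 6 high-rRNA libraries with 7.54% to 12.9%. After these, the members with most counts were Psi28S-2566, Psi18S-1820, Tudor-SN-a, Psi18S-531, Or-aca5, Psi18S-176, U3:54Aa and Psi18S-1377d. Of these 8, 7 took 91.8% to 98.3% of their counts from the low-rRNA libraries and Psi28S-2566 took 99.5%.

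Psi28S-2566 shows the pattern in full. Its level was 545 in C replicate 1 and 3.60 in C replicate 2, 704 and 3.31 in M, 3.92 and 4.14 in FC, and 6.80 and 10.1 in FM. Both low-rRNA libraries were far above every other, of which FM replicate 2 was the highest. Its host gene CG3902 was at 110 and 145 in those libraries and 61.9 to 104 in the others.

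Differences between library kinds were estimated by a model over the 8 libraries with group means and a term for the kind of library, using edgeR's quasi-likelihood test with Benjamini-Hochberg adjustment over all 11561 genes tested and a threshold of 0.05 (the class fit). Of the 170 members 166 passed the filter on low counts and were tested. The 4 that did not are U49:66Da, Psi18S-640a, Me28S-A2589b and Me28S-A771. The library term was past the threshold for 76 of the 166, with 70 higher where rRNA was low and 6 lower, and for 30.3% of all genes (15.3% higher, 15% lower). As the 50-count rule used the same counts, nothing is read from the members' count, and the values serve as description. The median log2 difference was 1.73 over the tested members and 0.09 over all genes. Of the 117 members that reach the minimum without the low-rRNA libraries, 59 were higher and 6 lower, with a median of 1.76. With total counts, rRNA included, as the library size, the median over all genes moves from 0.09 to 1.91 and the members' calls to 113 higher and 1 lower, so a difference is relative to that of the other genes outside rRNA.

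By box, 54 of 107 H/ACA members were higher and 1 lower (median log2 difference 2.17), and 3 of 30 C/D members were higher and 3 lower (median −0.24). All 3 U3 copies were higher, by 3.61 for U3:54Aa, 3.73 for U3:9B and 7.86 for U3:54Ab. Length separated the members in the same way: of 130 members of 110 bases or more, 68 were higher and 1 lower with a median of 2.30, and of 31 shorter ones 2 were higher and 2 lower with a median of −0.13. The Spearman correlation of the log2 difference with annotated length was 0.48 over 161 members. Box and length overlap largely here, with annotated lengths of 124 to 268 bases for H/ACA members and 67 to 140 for C/D members. The U3 copies, also of the C/D box, are 210 to 213 bases long. The parts of box and length were not tested.

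**Figure D2:**
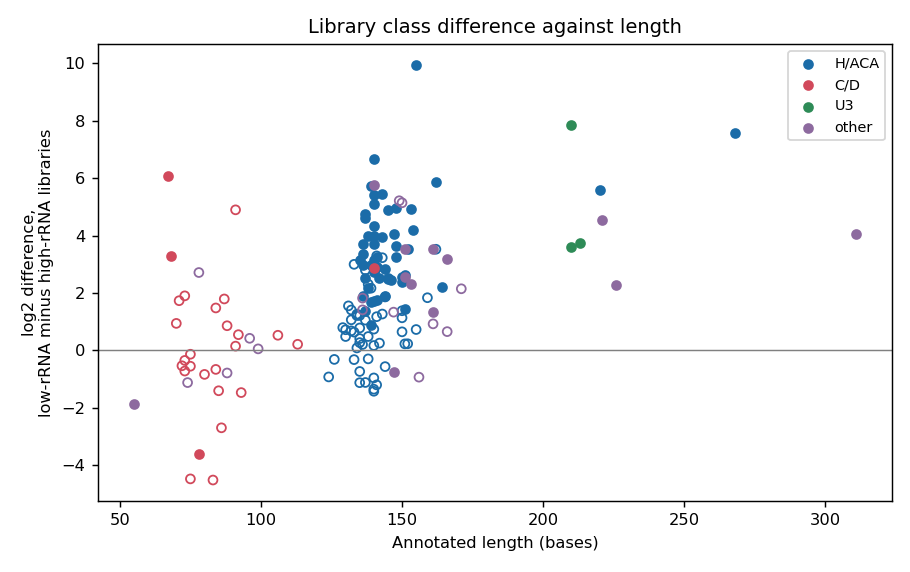
Log2 difference between low-rRNA and high-rRNA libraries in the class fit against annotated length in bases, 1 point per tested member, coloured by box and filled where the adjusted p is below 0.05. Members under 110 bases scatter around a median of −0.13, and longer ones lie mostly above 0 with a median of 2.30.

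Among the members past the threshold, the largest differences were these. Psi28S-2949 had 307 counts in C replicate 1, 241 in M replicate 1 and 0 to 2 in each of the others, with a fitted log2 difference of 9.95. The other large positive differences were U3:54Ab (7.86), Psi28S-2566 (7.57), Psi18S-1854c (6.65) and the C/D-box orphan Or-CD10 (6.08). With single-digit or no counts in several libraries, the fitted sizes of Psi28S-2949, U3:54Ab and Or-CD10 depend on the prior count. In the opposite direction, Me28S-C1237 had a level of 0.497 in C replicate 1 and 0.678 in M replicate 1, against 7.37 to 16.3 in the other 6 (log2 difference −4.21, SE 0.57). Me28S-G764 (−3.62), Psi28S-2263 (−2.87), Me28S-G2596 (−1.89), 185 (−1.87) and CG43051-a (−0.76) were also lower. The fitted differences of Me28S-G1083b (−4.51, edgeR adjusted p = 0.0519) and Me18S-G1358a (−4.47, edgeR adjusted p = 0.0681) were larger in size but did not pass, with 0 to 3 counts in the low-rRNA libraries. Me28S-C1237, Psi28S-2263 and Me28S-G2596 are among 5 members whose identifiers did not match the annotation. CG43051-a lies wholly within an exon of CG43051 on the same strand, so its reads cannot be told from those of that gene. Me28S-G1083b likewise lies wholly within a same-strand exon of another gene.

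Mutant mtDNA was first compared with control mtDNA in the fit with 1 mean per group. With the 2 kinds of library mixed within C and within M, no member and 0% of all genes passed the threshold. At an unadjusted p below 0.05 there were 1 member and 233 genes. The median log2 difference, M minus C, was 0.57 over the members and 0.01 over all genes, and 135 of 166 members were above 0.

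In the class fit 7 of 166 members rose in M, which is 4.22%, and none fell. Over all genes 1.44% were called higher and 0.64% lower. The 7 were the 3 U3 members, Psi28S-291, Psi18S-1377a, and CG32479-a and CG32479-b, which lie in introns of the gene Usp10. The median log2 difference of the 166 was 0.60 against 0.01 over all genes, and 134 were above 0. Other short RNAs had medians near that of the members: it was 0.66 over 21 snRNAs, with 20 above 0 and 1 called higher, and 0.67 over 10 scaRNAs, with 7 above 0 and none called. The median of 8 tRNA genes was −0.27. The summed RNase P and RNase MRP RNAs were 1.52-fold and 1.54-fold higher in M than in C by replicate number, while the snRNA sum was 1.87-fold in replicate 1 and 0.947-fold in replicate 2. The H/ACA median was 0.64, the C/D median 0.37 and that of the members with no box in the name 0.66. Of the 7, 6 are among the 117 members that reach 50 counts without the low-rRNA libraries, and U3:54Ab is not. With total counts as the library size 4 members were called, and U3:9B, Psi18S-1377a and CG32479-a were not. CG32479-a also lost its call without any 1 of the 4 C and M libraries. U3:9B and U3:54Ab lost theirs without C replicate 1 or without M replicate 1. With 1 library left out, the counts of called members ran from 7 to 22. They exceeded 10 without FC replicate 2 (22), FC replicate 1 (19), FM replicate 2 (12) or FM replicate 1 (11). The shares of all genes called in those refits are not given here, so nothing is read from these counts.

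U3:54Aa had a level of 85.4 and 6.44 in C replicates 1 and 2, 304 and 28.3 in M, 15.2 and 21.7 in FC, and 26.7 and 43.9 in FM. M was above C in both replicate numbers, 3.56-fold and 4.4-fold. In the class fit the log2 difference was 2.08 (SE 0.25, edgeR adjusted p = 0.00146).

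U3:9B had a level of 31.8 and 2.46 in C, 94.6 and 7.54 in M, 1.84 and 5.12 in FC, and 11.1 and 12.8 in FM. M was 2.98-fold and 3.06-fold above C, with a log2 difference of 1.73 (SE 0.36, edgeR adjusted p = 0.0288). U3:54Ab was rare outside the low-rRNA libraries: it had 555 and 0 counts in C, 1457 and 3 in M, 4 and 4 in FC, and 12 and 6 in FM. Its log2 difference of 2.38 (SE 0.46, edgeR adjusted p = 0.0205) thus rests on replicate 1.

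The U3 copies are close copies of each other and the handling of reads that fit several places is not given in the sources used here, so they were also summed. The summed U3 level was 134 and 8.90 in C, 475 and 36.2 in M, 18 and 28 in FC, and 39.7 and 58.1 in FM. M was 3.53-fold and 4.07-fold above C. By replicate number, which does not pair those libraries, FM was 2.21-fold and 2.09-fold above FC. Tested as 1 gene in the class fit, the sum had a log2 difference of 2.03 for M minus C (SE 0.22, edgeR adjusted p = 0.000977). For FM minus FC it was 1.08 (SE 0.23, edgeR adjusted p = 0.125). Without U3 the other 167 members together were 1.60-fold and 1.68-fold higher in M than in C.

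Psi28S-291 had a level of 751 and 17.4 in C, 2101 and 43.2 in M, 27.0 and 42.4 in FC, and 55.3 and 75.6 in FM. M was 2.80-fold and 2.48-fold above C (log2 difference 1.55, SE 0.20, edgeR adjusted p = 0.00229). It lies in an intron of RpL3, which encodes a protein of the large ribosomal subunit and itself had a log2 difference of 0.62 (edgeR adjusted p = 0.0131). The 3 C/D members in the same host had log2 differences of −0.19, −0.21 and 0.99, none past the threshold. Among them, Me18S-A425 and Me18S-C1096 overlap exons of other genes.

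Psi18S-1377a had a level of 172 and 89.0 in C, 271 and 166 in M, 103 and 76.0 in FC, and 126 and 140 in FM. It is the called member whose level differed least between the kinds of library, and M was 1.57-fold and 1.86-fold above C (log2 difference 0.89, SE 0.15, edgeR adjusted p = 0.00894). Its host RpS7, a protein of the small ribosomal subunit, had a log2 difference of 0.25 (edgeR adjusted p = 0.465).

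CG32479-b had a level of 66.5 and 1.70 in C, 213 and 12.3 in M, 7.60 and 11.0 in FC, and 10.7 and 20.3 in FM, with 9 counts behind the value of C replicate 2. Its log2 difference was 2.13 (SE 0.32, edgeR adjusted p = 0.00625). CG32479-a had a level of 45.3 and 8.52 in C, 92.7 and 21.7 in M, 21.4 and 10.7 in FC, and 12.5 and 12.4 in FM, with a log2 difference of 1.29 (SE 0.29, edgeR adjusted p = 0.0444). Their host Usp10, which encodes a ubiquitin-specific protease, was at 205 to 247 in C and M and had a log2 difference of 0.00.

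**Figure D3:**
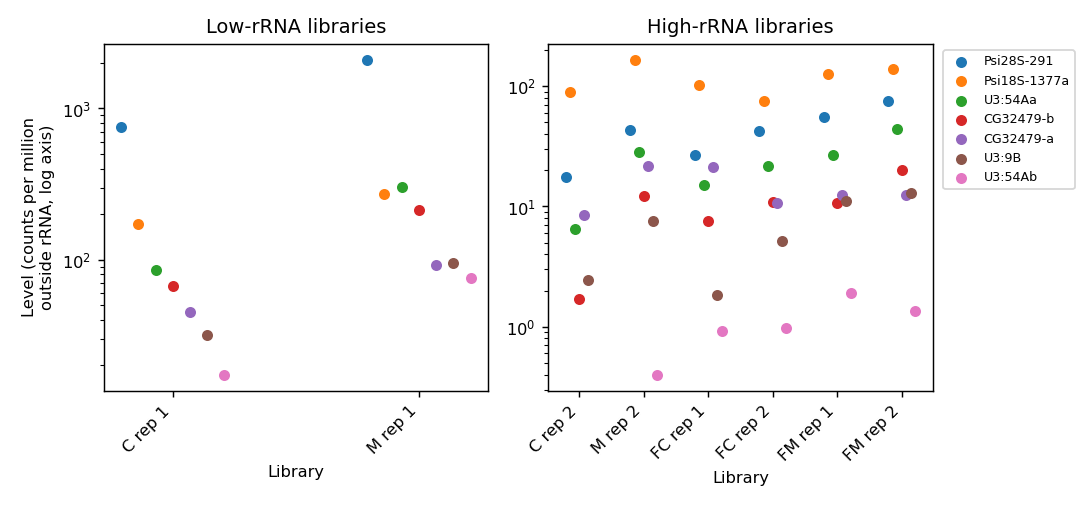
Level of the 7 members called higher in M than in C, in counts per 1000000 counts outside rRNA genes on log axes, in the 2 low-rRNA libraries (left) and the 6 high-rRNA libraries (right). M lies above C within each panel, and U3:54Ab in C replicate 2 has 0 counts and no point.

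Ratios within a replicate number need no fit. Among members with at least 10 counts in both libraries, M was above C for 107 of 152 in replicate 1, with a median ratio of 1.26. In replicate 2 it was above for 62 of 83, with a median of 1.56. Other genes outside rRNA were above 1 in 34.7% and 45.1% of cases, with medians of 0.897 and 0.965. In both replicate numbers together, 45 of 79 members were above 1 (57%), compared with 18.5% of all 9329 genes so measured, and 6 of the 79 were below 1 in both. The C/D members were more evenly placed in replicate 1, with 9 of 22 above 1, and in replicate 2 had 7 of 11.

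**Figure D4:**
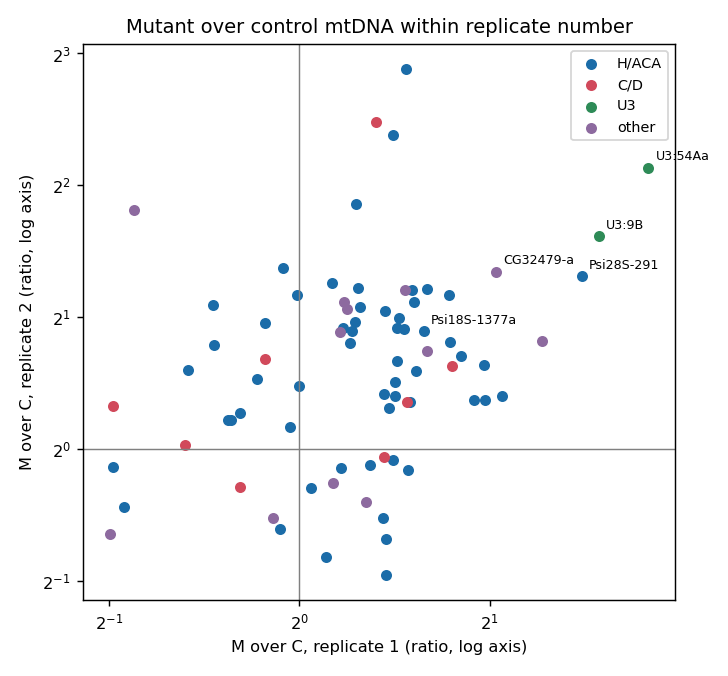
Ratio of M to C in replicate 1 (horizontal) and replicate 2 (vertical), both on log axes, for the 79 members with 10 or more counts in all 4 libraries. Most points, 45 of 79, lie above 1 on both axes, and U3:54Aa, U3:9B and Psi28S-291 lie farthest to the right.

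The summed level of 4 visceral muscle markers was 661 in C replicate 2 and 1611 in M replicate 2. In the low-rRNA libraries it was 2676 in C and 2281 in M. The progenitor sum was 369 and 241 in C and 218 and 163 in M. Of the progenitor markers, Dl (log2 difference −0.99, edgeR adjusted p = 0.0148) and Sox100B (−0.90, edgeR adjusted p = 0.0341) fell in the class fit. Of 4 enteroendocrine markers NPF rose (2.05, edgeR adjusted p = 0.00541), while pros (−0.81), AstC (−0.67) and Tk (−0.099) were below 0 and not called. The enteroendocrine sum was 247 and 261 in C and 184 and 229 in M. None of the 4 enterocyte or 4 muscle markers passed the threshold. The part of any change in cell makeup in the snoRNA differences was not tested.

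Mutant against control mtDNA was also compared under FOXO knockdown, where all 4 libraries are high-rRNA. In the class fit no member passed the threshold, beside 0.164% of all genes. At an unadjusted p below 0.05 there were 35 members and 997 genes. The member median log2 difference, FM minus FC, was 0.45 against 0.03 over all genes, and 116 of 166 were above 0. In the fit without the library term it was 0 members and 0% of genes, with 2 members at an unadjusted p below 0.05. The lack of calls does not show that the members were alike, and leaving out 1 library gave 0 to 24 calls, with 24 without FC replicate 2, 13 without M replicate 2 and 10 without either C replicate. Without the filter on low counts 20 members were called, 19 of them higher in FM, and with DESeq2 8, all higher. The shares of all genes called under these alternatives are not given here. The counts thus show only that the calls depend on the setting.

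Among the 63 members with at least 10 counts in each of these 4 libraries, both FM libraries were above both FC libraries for 33 and below for 4. Over the 8359 genes so measured 22% were above and 20.8% below. The 33 include U3:54Aa, Psi28S-291 and Psi18S-1377a from the 7 called between M and C. Psi28S-1060, a guide for 28S rRNA in an intron of RpL17, had 5.76 and 14.4 in FC and 31.6 and 41.9 in FM. The gene 185, whose name gives no box, had 29.3 and 48.2 in FC and 84.7 and 95.9 in FM. Psi28S-1180, in the gene tou, had 8.06 and 11.5 in FC and 24 and 37.6 in FM. Sizes for these last 3 come from a fit of the 6 high-rRNA libraries alone, added after seeing the data. It takes FM minus FC from the same 4 libraries, so the positive signs add no support. The log2 differences were 1.84 for Psi28S-1060 (SE 0.38), 1.20 for 185 (SE 0.22) and 1.63 for Psi28S-1180 (SE 0.37).

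That same fit has 1 library in C and 1 in M, which are assumed to vary like the other groups. For that reason its effect sizes are given without calls. The members named from it, here and elsewhere, were picked by its own adjusted p, so their sizes are description only. For M minus C the log2 differences of U3:54Aa, Psi28S-291 and Psi18S-1377a, called in the class fit, were 2.19, 1.37 and 0.96. Those of Or-aca5, an H/ACA orphan, and 660 were 2.92 and 1.87. The level of 660 was 46.0 and 13.4 in C and 25.3 and 47.2 in M, so that M was lower than C in replicate 1 and higher in replicate 2. The gene 660 lies wholly within an exon of the muscle actin gene Act57B on the same strand, and Act57B was at 387 and 149 in C and 264 and 390 in M.

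The difference between the mutant effects with and without FOXO knockdown was tested as an interaction. No member passed in the class fit, beside 0.51% of all genes, and 11 members had an unadjusted p below 0.05, as did 1066 genes. Leaving out 1 library gave 0 to 12 calls, with 12 without FC replicate 2, and the shares of all genes called there are not given here. The member median was −0.03 and that over all genes 0.03. In the fit without the library term 0% of genes and no members passed, with 0 members at an unadjusted p below 0.05. U3:54Aa had an interaction of −1.16 on the log2 scale (SE 0.36, edgeR adjusted p = 0.247) and CG32479-a of −1.67 (SE 0.43, edgeR adjusted p = 0.147). In the fit of the 6 high-rRNA libraries the interaction of 660 was −2.48 (SE 0.49).

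For FOXO knockdown against none, both low-rRNA libraries are without knockdown, so within 1 kind of library the comparison sets both FC libraries against C replicate 2 and both FM libraries against M replicate 2. In the class fit no member passed for FC minus C, beside 0.571% of all genes, nor for FM minus M, beside 1.9%. At an unadjusted p below 0.05 there were 17 members and 1126 genes for FC minus C, and 9 members and 1164 genes for FM minus M. The member medians were 0.37 and 0.21 on the log2 scale, against −0.03 and 0.01 over all genes. Leaving out 1 library gave 1 to 12 calls for FC minus C, with 12 without FC replicate 2, and 0 to 2 for FM minus M. Without the filter on low counts 9 and 2 members were called, and with DESeq2 5 and 1. For these alternatives the shares of all genes called are not given here, so nothing is read from the counts. In the fit of the 6 high-rRNA libraries, Or-aca5 was higher in FC than in C (log2 difference 2.88, SE 0.66) and 660 lower in FM than in M (−1.33, SE 0.32). Or-aca5 had 11 counts in C replicate 2. In the fit without the library term the member medians were −1.0 and −0.97, so the direction depends on that term, and 0% of genes passed in either, with 17 and 5 members at an unadjusted p below 0.05. The largest of the U3 differences was 3.74 for U3:54Ab in FC minus C (SE 0.90, edgeR adjusted p = 0.11), against a C replicate 2 with 0 counts.

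Of the 170 members, 154 lay within a host gene on the same strand, 145 in protein-coding hosts and 9 in noncoding ones, 11 had no host and 5 were not in the annotation. There were 64 hosts, of which 42 held 1 member, and 24 ribosomal protein genes held 56 members. RpS5a, a small-subunit protein gene, and Arpc2, a subunit of the actin-nucleating Arp2/3 complex, held 14 each. The chromatin remodeller dom held 13, kra 8, and RpS7 and Hrb98DE, which encodes an RNA-binding protein, 7 each. The gene pAbp, which encodes the protein used in the recovery, held 3 members, and others lie in genes of the snoRNA machinery itself: 3 in Nop60B, the pseudouridine synthase, and 1 in Fib, the methyltransferase fibrillarin. None of the 3 U3 members had a host.

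Members and their hosts differed in the size of their differences. Over the 62 hosts tested, the median log2 difference of low-rRNA minus high-rRNA libraries was 0.78, with 32 hosts higher and 14 lower. Of 149 members in tested hosts, 101 had a larger difference than their host. Members were selected on summed counts that lay mostly in the low-rRNA libraries, which favours members high there, while hosts were not so selected. The 101 are therefore description only. The same count for the members that reach the minimum without those libraries is not given here. For M minus C in the class fit the host median was 0.08 with 2 hosts called, RpL3 and RpL7A, and 115 of 149 members were above their host.

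**Figure D5:**
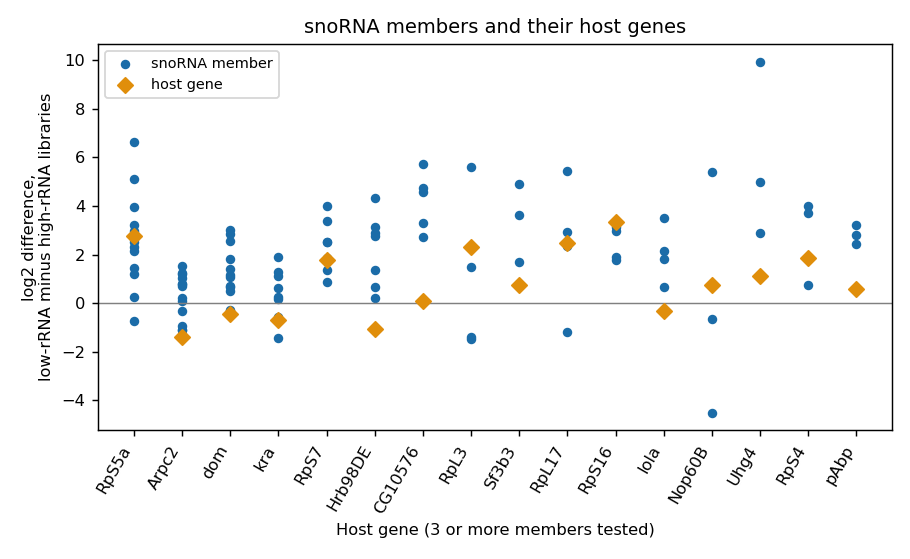
Log2 difference between low-rRNA and high-rRNA libraries in the class fit for members (points) and their host gene (diamonds), in hosts with 3 or more tested members. Members of 1 host spread over several log2 units, as in Uhg4, where Psi28S-2949 reaches 9.95.

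Members within 1 host differed among themselves. RpS7 holds 5 copies of Psi18S-1377, which share a target position, and 2 guides for 28S. Psi18S-1377a differed by 0.88 on the log2 scale between the kinds of library (SE 0.15), Psi18S-1377c by 1.37, Psi18S-1377e by 2.52, Psi18S-1377d by 3.37 and Psi18S-1377b by 3.99, while RpS7 differed by 1.78. In C replicate 2, Psi18S-1377a was at 89.0 and the other 4 copies at 2.27 to 11.7. In C replicate 1, Psi18S-1377a was at 172 and the others at 16.6 to 134. In RpL3, the H/ACA member Psi28S-291 differed by 5.59, and the 3 C/D members by −1.47, −1.40 and 1.48. The value of 1.48 is that of Me18S-A425, which lies wholly within a same-strand exon of another gene. That of −1.40 is from Me18S-C1096, which overlaps an exon on the opposite strand. Of the 14 members in Arpc2, all copies of Psi18S-525 or Psi18S-640, 13 were tested, their median difference was 0.72 and none was called.

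Copies that share a target position made up 21 sets of 2 to 9 members. The largest were 9 copies of Psi18S-525, 6 each of Psi18S-640 and Psi28S-1135, and 5 each of Psi18S-1377 and Psi28S-3316. Within a set the counts were unequal: the 5 copies of Psi18S-1377 ran from 1045 to 14641 counts, and the 4 of Psi28S-1192 in RpS5a from 63 to 4387. No member had the same counts as another gene in all libraries. Reads from near-identical copies may still have been split or lost in counting, so values of single copies are uncertain.

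Of 24 listed proteins that build or work in snoRNA complexes, 16 were in the table and tested. None was called in M minus C, FM minus FC, FC minus C, FM minus M or the interaction in the class fit, and the medians ran from −0.20 to 0.06. Between the kinds of library 4 were higher in the low-rRNA libraries, Fib (1.84), hoip (2.46), nop5 (0.74) and Nop60B (0.77). The first 3 encode core proteins of C/D-box complexes and Nop60B the synthase of H/ACA-box complexes. CG10341 was lower (−0.73). Fib was at 68.8 in C replicate 1 and 83.6 in M replicate 1, against 15.1 to 23.1 in the other 6 libraries. The 7 Uhg genes, noncoding hosts that are spliced to release snoRNAs, had summed levels 0.807-fold in C replicate 1 relative to C replicate 2 and 0.755-fold in M replicate 1 relative to M replicate 2. Their sum and their median differ in sign here, as the median log2 difference of the 7 was 0.36, with 1 called lower and none higher.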

How the data were processed

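RNA was measured by sequencing in 8 libraries, 2 in each of 4 groups taken from the labels. The authors deposited raw counts per gene, without normalization. Per the submitters' processing notes FastQC, cutadapt, HISAT2, featureCounts and limma were used. Their versions, the build and gene models, strandedness and the handling of reads with several matches are not given in the sources used here, so no coordinates are printed. Reads of overlapping genes, and of antisense genes if strand was not used, cannot be told apart.

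Of the 17473 identifiers 17331 matched the Ensembl annotation used here for lengths, hosts and exon overlaps, and 165 of the 170 members did. Boxes and targets were read from gene names. The members and lists were chosen with earlier results of these data known. Named are every U3 copy, the 10 members with most counts, members past the threshold, the 5 largest library differences each way among members past the threshold, members next to the minimum, and their hosts; other members were named after their values were seen.

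Counts were tested with edgeR 4.0.16 in R 4.3.3: filterByExpr on the groups (11561 genes), TMM scaling, and two-sided quasi-likelihood F-tests on all 8 libraries, since 2 replicates per group give too few for separate estimates of the spread. The group fit has 1 mean per group, and the class fit adds a term for libraries below or above an rRNA share of 50%. Benjamini-Hochberg adjustment ran over all genes tested. A standard error is the log2 difference divided by the square root of F. rRNA genes are those with rRNA in the name, apart from mitochondrial ones. The fits were tested on simulated data. Alternatives were RLE scaling, total counts, rRNA genes removed, no filter, DESeq2 1.42.0, a replicate block, U3 rows summed and leaving out each library. The 6 high-rRNA libraries alone were an alternative added after seeing the data. Descriptions used pandas 2.3.3 under Python 3.11.15, and plots matplotlib 3.10.9. The 95% Poisson intervals and the floors describe counting error alone, as PCR copies are not independent molecules.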

Additional observations from a re-analysis of the deposited data

Results flagged for a closer look

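The gene 660 is singled out because the mutant mtDNA effect differed between the libraries with and without FOXO knockdown. In the fit of the 6 high-rRNA libraries, which was added after seeing the data and has 1 library each of C and M, the log2 interaction was −2.48 (SE 0.49). Its counts were 1482 and 71 in C, 485 and 357 in M, 143 and 109 in FC, and 134 and 80 in FM. M was 3.51-fold above C in replicate 2 and 0.549-fold in replicate 1, so the 2 replicate numbers point in opposite directions. The gene lies within an exon of Act57B on the same strand. Groups of 2 are too small for a search for outlying libraries.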

How the results depend on the processing

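In the group fit no member was called in any comparison under the alternatives of all 8 or of 7 libraries. The 5 comparisons were M minus C, FM minus FC, FC minus C, FM minus M and the interaction. Calls of the fit of the 6 high-rRNA libraries are not counted, as it has 1 library in C and 1 in M. In the class fit, in the same order, no filter called 20, 20, 9, 2 and 5 members and DESeq2 12, 8, 5, 1 and 1, and total counts called 4 for M minus C. Leaving out 1 library gave 7 to 22, 0 to 24, 1 to 12, 0 to 2 and 0 to 12, and 54 to 94 for the library term, whose 15 alternatives stayed within 1.5 times of the 76. As the shares of all genes called under these alternatives are not given here, the counts show only how far the calls move. The cause of these moves was not tested. All 7 members called for M minus C kept their direction in the class fit under the alternatives run. In the group fit, where the kinds of library are mixed, leaving out 1 library moved the log2 difference between −0.28 and 2.93 for CG32479-a, −1.45 and 6.24 for CG32479-b, −3.11 and 6.15 for Psi28S-291, −0.67 and 4.89 for U3:54Aa, −4.38 and 11.25 for U3:54Ab, and −1.16 and 4.57 for U3:9B, with the negative values without M replicate 1. That removes the low-rRNA library of M only.

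The summed-level ratios (C replicate 1 over 2, M replicate 1 over 2, M over C in replicate 1) were 29.6, 24.2 and 1.39 with total counts as the denominator and 5.33, 4.70 and 1.49 with the 3 highest members left out. TMM-scaled sizes gave 7.72 for M replicate 1 over 2 and 1.86 and 1.78 for M over C in replicates 1 and 2, and a minimum of 200 counts gave 7.98 for C and 7.54 for M replicate 1 over 2.

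The replicate numbers do not pair the libraries: deviations from the group means correlated at 0.69 for C with M, where replicate 1 is the low-rRNA library in both, and at −0.04 to 0.00 for the other pairs. With a replicate block the class fit called 10 members for M minus C, 5 for FM minus FC and 3 for FC minus C. It called 59 for the library term, and the group fit called 0. As the shares of all genes called with the block are not given here, nothing is read from these counts.

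Depth limits the 6 high-rRNA libraries, where 3 to 33 members were at 0 in each and 90 to 125 of the 170 had 10 or more counts.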
